A study of Mus musculus with 18 samples.

Results

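Btla, Cd200, Cd47 and Cblb are genes of mouse chromosome 16 whose products restrain immune cells. They were taken as the 4 rows with these symbols among the 40620 rows of a table of read counts. The RNA came from MC3T3-E1, a line of mouse preosteoblasts derived from calvaria. The series asked what silencing of the corepressor gene Rcor2 does while these cells differentiate. The cells carried a stable lentiviral short hairpin construct, shRcor2-18, shRcor2-20 or the control shScramble, in cells whose genotype is otherwise labelled WT, and RNA was taken from each at 0h, 24h and 7d, 2 samples to a group. Osteogenic medium, per the labels' protocols, held 50 ug/ml ascorbic acid, 5 mM beta-glycerophosphate and 10 nM dexamethasone, a glucocorticoid. It is listed for the samples at 24h and 7d and not for those at 0h. Time and medium therefore differ together in every comparison with 0h. The titles give 7d where the protocols name other late times, so times are given as in the titles. The labels do not say whether paired samples were grown as separate cultures, and p-values therefore reflect a spread between samples that could be technical only. The genes were chosen by their levels over time, which were known beforehand, so those levels are described with no p-value, and p-values for these genes are given for the hairpins against shScramble.

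Immune inhibition of this kind works at the cell surface and inside the cell. Btla is an inhibitory receptor of the immunoglobulin superfamily, known mainly from lymphocytes, which binds Tnfrsf14. Cd200 is a surface glycoprotein that engages Cd200r1 on myeloid cells, and in the skeleton it is used as a marker of stem and progenitor cells. Cd47 is a widely expressed surface protein that binds Sirpa on macrophages and thrombospondin, and both Cd200 and Cd47 take part in the formation of osteoclasts in mice. Cblb is an intracellular E3 ubiquitin ligase that raises the threshold for activation of T cells.

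Sample 1 of each construct at 0h stood apart and was left out, so that 15 of 18 libraries entered the comparisons and each construct had 1 library at 0h. Log2 counts scaled to library size (CPM) of these 3 libraries correlated across rows at 0.985 to 0.990 with each other and at 0.729 to 0.755 with the rest, which correlated at 0.847 to 0.909 among themselves. They had 11.7% to 12.5% of their counts on the coding genes of chromosome 16 between Mefv and Cbr3, against 6.95% to 7.79% in the other 15. Total counts were 3504808 to 6139315 in the 15 libraries. Many row names elsewhere in the table were not taken as the genes their reads came from. That choice came from an earlier search of these data, whose values are not given here. The 4 genes lie in the stretch from Mefv to Cbr3, which held 610 of 646 coding rows of chromosome 16. There 23 of 24 broadly expressed genes had at least 20 CPM (median 277 CPM), the exception being Sod1 at 7.79 CPM. A level of at least 20 CPM does not by itself show that names go with reads. Of 8 osteoblast genes named elsewhere, 5 also had it. The Rcor2 row lies outside the stretch from Mefv to Cbr3. It held 207 to 268 CPM with the hairpins and 195 to 238 CPM with shScramble (log2 difference 0.10 ± 0.062, SE). Its reads may be those of another gene, so whether Rcor2 was silenced cannot be read from this row.

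The 250 bases before the RefSeq start of each gene, on GRCm38.p6, are shown because Btla and Cd200 are neighbours whose levels varied alike between the samples of a hairpin group. The count table holds no coordinates, and the submitters' processing notes name the mm9 build, so these positions come from the RefSeq annotation alone. Lines read 5′ to 3′ on the strand of the gene, and capitals mark matches on either strand to the GC box GGGCGG, the CCAAT box, AGAACA, a half-site of the glucocorticoid receptor, or TGTGGT, the core bound by RUNX factors.
Btla, chr16:45224087-45224336, plus strand: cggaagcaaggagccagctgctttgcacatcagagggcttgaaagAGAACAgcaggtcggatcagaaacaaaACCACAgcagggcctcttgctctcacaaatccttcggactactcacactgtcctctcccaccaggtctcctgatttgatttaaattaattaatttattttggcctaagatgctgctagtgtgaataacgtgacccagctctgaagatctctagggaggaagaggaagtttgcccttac
Cd200, chr16:45409054-45409303, minus strand: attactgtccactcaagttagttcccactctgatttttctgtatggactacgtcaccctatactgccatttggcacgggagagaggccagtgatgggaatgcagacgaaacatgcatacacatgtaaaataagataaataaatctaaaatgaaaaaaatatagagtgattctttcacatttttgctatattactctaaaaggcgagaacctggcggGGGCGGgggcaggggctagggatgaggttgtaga
Cd47, chr16:49855404-49855653, plus strand: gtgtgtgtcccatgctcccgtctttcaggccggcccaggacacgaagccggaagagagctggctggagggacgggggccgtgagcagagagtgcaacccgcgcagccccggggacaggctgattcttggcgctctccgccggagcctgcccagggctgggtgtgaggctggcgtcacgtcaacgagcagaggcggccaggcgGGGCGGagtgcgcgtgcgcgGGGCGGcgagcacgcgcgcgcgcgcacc
Cblb, chr16:52031299-52031548, plus strand: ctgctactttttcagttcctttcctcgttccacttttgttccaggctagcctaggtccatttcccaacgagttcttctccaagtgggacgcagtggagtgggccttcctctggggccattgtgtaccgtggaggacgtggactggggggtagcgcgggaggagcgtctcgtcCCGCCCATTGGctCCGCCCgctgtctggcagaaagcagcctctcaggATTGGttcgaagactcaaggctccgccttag
The promoters of Btla and Cd200 held 47.2% and 42.4% G and C, against a median of 52% over 27018 promoters of the same length. Of these promoters, 31.8% had less than that of Btla and 17.6% less than that of Cd200. That of Cd47 was richer than 94.7% of them, at 73.2%, with 30 CpG dinucleotides, and that of Cblb had 58.8% and 14 CpG. Btla had 4 CpG and Cd200 had 6, where the median over all promoters was 6. GC boxes numbered 2 each in Cd47 and Cblb, 1 in Cd200 and 0 in Btla, and 32.9% of all promoters held at least 1. Cblb alone of the 4 had CCAAT boxes, 2 of them (34.5% of all promoters), of which 1 directly adjoins a GC box without overlap. Btla alone of the 4 had AGAACA, at position -205 from the start (16.2% of all promoters), and TGTGGT, at position -178 (14.2% of all promoters). These are matches of letters, not binding sites.

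Btla was low at 0h and far higher at 7d in every construct. At 0h, where sample 2 stands alone, it had 1.56 CPM with shRcor2-18, 2.84 CPM with shRcor2-20 and 3.59 CPM with shScramble, from 7, 11 and 15 reads. At 24h it had 10.1 and 2.98 CPM with shRcor2-18, 10.9 and 3.78 CPM with shRcor2-20, and 8.32 and 9.51 CPM with shScramble (samples 1 and 2). At 7d it had 67.2 and 18.7 CPM with shRcor2-18, 47.4 and 20.4 CPM with shRcor2-20, and 62.8 and 47.7 CPM with shScramble. All 6 libraries at 7d lay above all 9 earlier ones, whereas 24h and 0h overlapped, because sample 2 of shRcor2-18 fell within the 0h range. Means were 2.66 ± 1.03 CPM at 0h, 7.61 ± 3.39 CPM at 24h and 44.0 ± 20.6 CPM at 7d (SD, n = 3, 6 and 6). The fitted log2 difference, averaged over constructs, was 1.57 ± 0.64 for 24h over 0h, 2.51 ± 0.48 for 7d over 24h and 4.08 ± 0.71 for 7d over 0h (SE), the last a 17-fold difference.

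**Figure D1:**
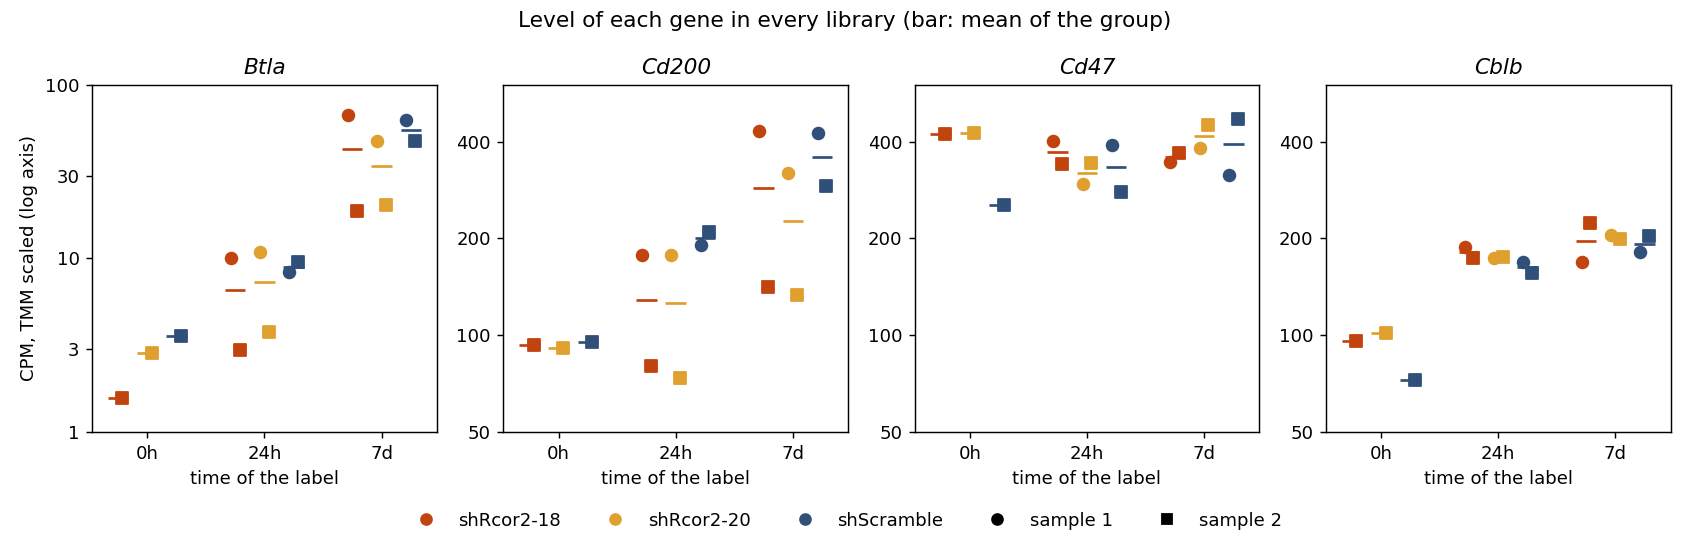
Levels of Btla, Cd200, Cd47 and Cblb in each of the 15 libraries, in CPM on a log axis, by time, with color for the construct, shape for the sample number and a bar for the group mean. Btla lies between 18.7 and 67.2 CPM at 7d, and sample 2 of each hairpin is below the other libraries for Btla and Cd200 at 24h and 7d.

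Cd200 was well expressed before differentiation and was also higher at 7d, by a smaller factor. At 0h it had 93.6 CPM with shRcor2-18, 91.0 CPM with shRcor2-20 and 95.6 CPM with shScramble. At 24h it had 177.6 and 80.3 CPM with shRcor2-18, 178.1 and 73.4 CPM with shRcor2-20, and 191.1 and 209.0 CPM with shScramble. At 7d it had 431.4 and 141.3 CPM with shRcor2-18, 319.1 and 133.6 CPM with shRcor2-20, and 423.8 and 291.1 CPM with shScramble. All 6 libraries at 7d were above the 3 at 0h, while at 24h the sample 2 libraries of both hairpins were below 0h and the other 4 were above it. Means were 93.4 ± 2.27, 151.6 ± 59.0 and 290.1 ± 130.6 CPM at 0h, 24h and 7d (SD, n = 3, 6 and 6). The fitted log2 difference was 0.66 ± 0.49 for 24h over 0h and 1.61 ± 0.51 for 7d over 0h, or 3.05-fold (SE).

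Cd47 had the highest CPM of the 4 genes at all 3 times on average, and its ranges at these times overlapped. At 0h it had 423.1 CPM with shRcor2-18, 425.7 CPM with shRcor2-20 and 254.8 CPM with shScramble. At 24h it had 400.5 and 341.2 CPM with shRcor2-18, 295.6 and 344.3 CPM with shRcor2-20, and 390.3 and 278.5 CPM with shScramble. At 7d it had 346.6 and 369.7 CPM with shRcor2-18, 381.6 and 451.2 CPM with shRcor2-20, and 314.2 and 470.8 CPM with shScramble. The ranges of the 3 times overlapped, with the shScramble library at 0h the lowest of all 15. Means were 367.9 ± 97.9, 341.7 ± 48.9 and 389.0 ± 60.6 CPM at 0h, 24h and 7d, and the fitted log2 difference for 7d over 0h was 0.12 ± 0.16 (SE). Without the shScramble library at 0h it was -0.14.

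Cblb, the ligase, was higher at 24h and stayed higher at 7d. At 0h it had 96.0 CPM with shRcor2-18, 101.6 CPM with shRcor2-20 and 72.8 CPM with shScramble. At 24h it had 188.3 and 173.9 CPM with shRcor2-18, 173.4 and 174.5 CPM with shRcor2-20, and 169.5 and 156.5 CPM with shScramble. At 7d it had 169.4 and 223.7 CPM with shRcor2-18, 204.8 and 198.7 CPM with shRcor2-20, and 181.9 and 203.6 CPM with shScramble. All 12 later libraries were above all 3 at 0h, and 24h and 7d overlapped. Means were 90.1 ± 15.3, 172.7 ± 10.2 and 197.0 ± 19.02 CPM at 0h, 24h and 7d. The fitted log2 difference was 0.95 ± 0.11 for 24h over 0h, 0.19 ± 0.085 for 7d over 24h and 1.14 ± 0.11 for 7d over 0h, or 2.21-fold (SE).

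At an edgeR adjusted p under 0.05 over all 12930 rows tested, 1 of the 4 genes (Cblb, higher) passed for 24h against 0h, where 1.86% of rows passed and 1.47% were higher. For 7d against 0h 2 of 4 passed (Btla and Cblb, both higher), with a background of 5.76% (3.27% higher), and for 7d against 24h 1 of 4 passed (Btla, higher), with a background of 2.34% (1.15% higher). The choice of genes used these contrasts, so nothing is read from the counts. With the sample number within each construct as a block, the rows called fell to 56 for 24h against 0h, 432 for 7d against 0h and 169 for 7d against 24h, against 240, 745 and 302 without it.

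The 3 libraries left out at 0h held more of all 4 genes than their partners. The whole stretch from Mefv to Cbr3 was also larger in them, at 11.7% to 12.5% of counts against 6.97% to 7.32%. A higher level there was thus not particular to the 4 genes. With scaling over all 18 libraries, Btla had 6.17, 8.07 and 4.67 CPM in sample 1 of shRcor2-18, shRcor2-20 and shScramble at 0h, Cd200 had 234, 210 and 196 CPM, Cd47 544, 526 and 536 CPM, and Cblb 156, 156 and 143 CPM. With these libraries included, the log2 difference for 7d over 0h was 3.27 for Btla, 0.90 for Cd200, -0.20 for Cd47 and 0.72 for Cblb. For 24h over 0h it was 0.74, -0.06, -0.41 and 0.51 in the same order. The directions for Btla and Cblb were thus kept in both sets of libraries, while that of Cd200 at 24h and that of Cd47 at 7d turned.

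Per kilobase of annotated exon, the order of the levels at 0h was Cd47 (58.6 CPM per kb), Cd200 (28.1), Cblb (8.60) and Btla (0.78). At 7d it was Cd200 (87.3 ± 39.3 CPM per kb), Cd47 (62.0 ± 9.66), Cblb (18.8 ± 1.82) and Btla (12.97 ± 6.06) (SD, n = 6). Neighbours in that order overlapped at 7d between Cd200 and Cd47 and between Cblb and Btla. At 24h Cd47 (54.4 ± 7.79) and Cd200 (45.6 ± 17.8) overlapped, above Cblb (16.48 ± 0.97) and Btla (2.24 ± 1.00).

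Btla and Cd200 varied between the 2 samples of a hairpin group, and Cd47 and Cblb did so less. The within-group SD of log2 CPM was 0.89 for Btla, 0.78 for Cd200, 0.25 for Cd47 and 0.13 for Cblb. Sample 1 of shRcor2-18 had 3.39 times the Btla of sample 2 at 24h and 3.60 times at 7d, and sample 1 of shRcor2-20 had 2.89 and 2.32 times. For Cd200 the ratio was 2.21 and 3.05 with shRcor2-18 and 2.42 and 2.39 with shRcor2-20. With shScramble the ratio was 0.88 and 1.32 for Btla and 0.91 and 1.46 for Cd200.

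Libraries at 24h and 7d were nearest to a library of another construct, not to the other sample of their own group. Over 312 genes of the stretch with at least 20 CPM, without the 4 genes, the nearest library at both 24h and 7d was sample 1 of shRcor2-18 for sample 1 of shScramble, sample 1 of shRcor2-20 for sample 2 of shScramble, and sample 2 of shRcor2-20 for sample 2 of shRcor2-18. At 0h the shRcor2-18 and shRcor2-20 libraries were nearest to each other. In these 6 pairs at 24h and 7d the larger level was 1.01 to 1.27 times the smaller for Btla and 1.02 to 1.17 times for Cd200, whereas in the 6 groups it was 1.14 to 3.60 times and 1.09 to 3.05 times. For Cd47 the range was 1.01 to 1.23 in the pairs and 1.07 to 1.498 in the groups, and for Cblb 1.00 to 1.13 and 1.01 to 1.32. At each time 2 of the 3 pairs join a hairpin library to a shScramble library and 1 joins both hairpins, and the part of such likeness in the comparison of hairpins with shScramble was not tested.

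Btla and Cd200 stood in much the same proportion in all 6 libraries at 7d, although the level of each differed up to 3.60-fold and 3.23-fold across them. Btla reads as a share of Btla plus Cd200 reads were 1.64% with shRcor2-18 (95% exact binomial interval 0.66% to 3.36%), 3.02% with shRcor2-20 (1.52% to 5.34%) and 3.62% with shScramble (2.04% to 5.91%) at 0h. At 24h they were 3.58% to 5.78% in the 6 libraries. At 7d they were 13.5% and 11.7% with shRcor2-18, 12.9% and 13.3% with shRcor2-20, and 12.9% and 14.1% with shScramble. Each 7d share was above each share of the earlier times. Intervals cover counting error only.

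**Figure D2:**
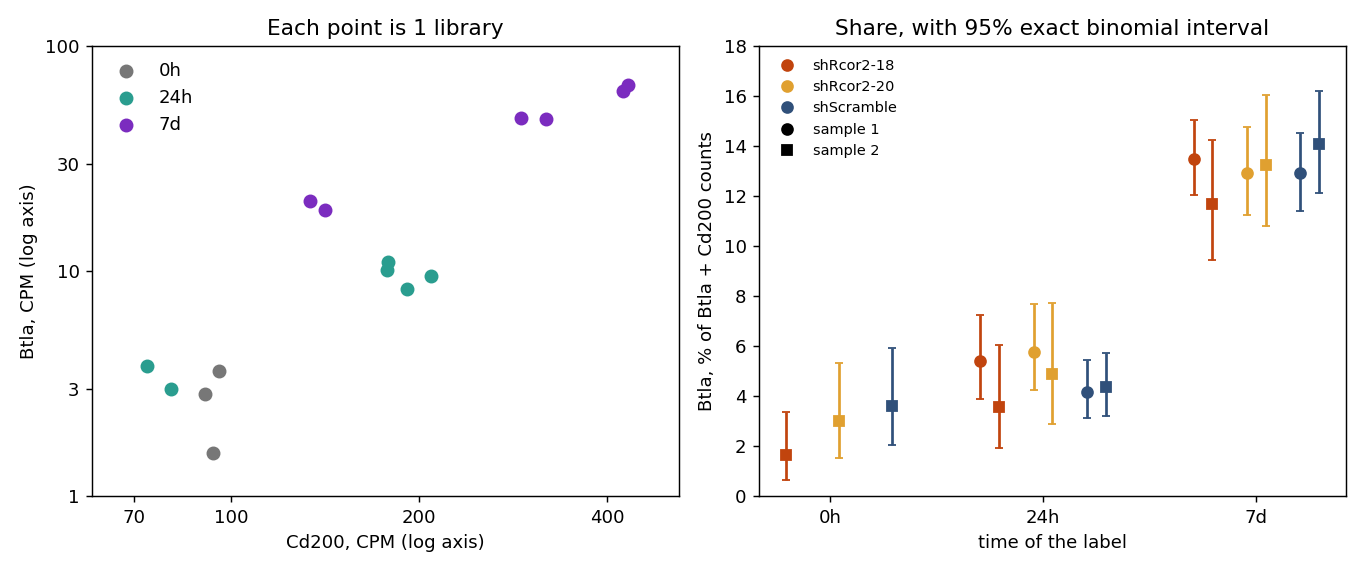
Left, Btla against Cd200 in CPM on log axes, a point per library, with color for the time. Right, Btla reads as a percentage of Btla plus Cd200 reads by time and construct, with exact binomial 95% intervals, which runs from 11.7% to 14.1% at 7d and is below 6% earlier.

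The coding genes around Btla and Cd200 did not share their pattern. No coding gene of the annotation lies between Atg3 and Btla or between Btla and Cd200, and 0 annotated genes overlap Btla, Cd200 or Cd47, while 1 noncoding gene lies in Cblb. Atg3, an enzyme of autophagy on the Btla side, had 159, 156 and 150 CPM at 0h, 24h and 7d. Slc35a5, next to it, had 73.4, 73.7 and 82.4 CPM. Ccdc80, which encodes an extracellular matrix protein, had 1553, 742 and 631 CPM, and it fell by 1.31 ± 0.22 on the log2 scale at 7d against 0h (SE, edgeR adjusted p = 0.0135). Beyond Cd200, Gm609, Slc9c1, Gcsam and BC016579 had at most 2 reads in any library, as had Cd200r3 beyond Ccdc80.

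**Figure D3:**
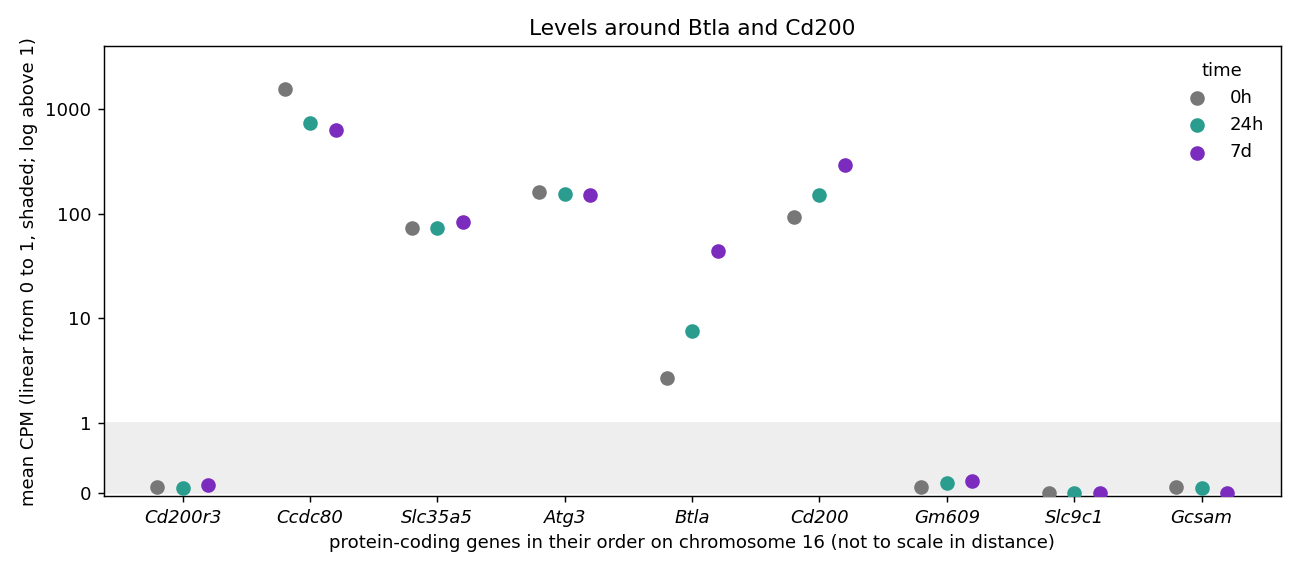
Mean CPM at 0h, 24h and 7d of the coding genes around Btla and Cd200 in their order on chromosome 16, on an axis that is linear below 1 CPM (shaded) and logarithmic above. Btla and Cd200 are higher at 7d, Atg3 and Slc35a5 are level, Ccdc80 is lower, and Cd200r3, Gm609, Slc9c1 and Gcsam are near 0.

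Cd47 and Cblb have 2 coding genes between them, Bbx and Ccdc54, and 23 coding genes lie between Cd200 and Cd47. Bbx, an HMG-box gene, had 263, 340 and 263 CPM at 0h, 24h and 7d, and Ccdc54 had 0 reads in all 15 libraries, which allows up to 0.49 to 0.86 CPM per library at 3 reads. Ift57, a gene of intraflagellar transport beside Cd47, had 73.4, 91.1 and 87.3 CPM. Beyond Cblb, the adhesion gene Alcam had 107, 63.1 and 31.9 CPM, with a log2 difference for 7d over 0h of -1.77 ± 0.48 that did not pass (edgeR adjusted p = 0.0749). Nfkbiz, which encodes a nuclear protein of the I kappa B family, fell by 0.90 ± 0.17 on the same scale (edgeR adjusted p = 0.0235). Nxpe3 rose by 1.02 ± 0.19 (edgeR adjusted p = 0.0202). Dzip3 had 102, 106 and 95.4 CPM and C330027C09Rik 250, 266 and 140 CPM, while Myh15 and Zpld1 had at most 1 read in any library.

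Likeness to each gene was measured as the root-mean-square (RMS) difference of log2 CPM, each gene centred on its mean over the 15 libraries, among 372 tested coding genes of the stretch. For Btla the nearest was Abat, the GABA transaminase, at 0.70, then Cd200 at 0.94 and Crybg3 at 0.94, against an RMS of 1.62 for Btla itself. Abat had 8.01, 9.94 and 45.6 CPM and Crybg3 37.0, 43.7 and 128 CPM at 0h, 24h and 7d. For Cd200 they were Trp63, the transcription factor p63, at 0.53, Hacd2, a dehydratase of fatty acid elongation, at 0.55, and the peroxisomal enzyme gene Ehhadh at 0.56, against 0.82 for Cd200 itself. Trp63 had 228, 329 and 420 CPM. For Cd47, whose own RMS was 0.25, they were Nsun3, a methyltransferase of mitochondrial transfer RNA, at 0.15, the SUMO protease gene Senp7 at 0.16 and Ccdc50 at 0.17. For Cblb, whose own RMS was 0.44, they were Eva1c at 0.17, the methyltransferase gene N6amt1 at 0.22 and Nxpe3 at 0.24. Eva1c had 22.9, 38.5 and 43.2 CPM and N6amt1 82.8, 144.7 and 173.4 CPM. Among the 4 genes, Cblb ranked 25th and Cd47 179th by this measure from Btla. Seen from Cd200, the difference of 0.94 to Btla exceeded the RMS of Cd200 itself, 0.82. It also exceeded the 0.86 between Cd200 and Cd47, which ranked 212th of 372. The measure is not scaled for the size of a gene's changes. A gene with larger changes, as Btla has beside Cd200 (1.62 against 0.82), is far by it even where the 2 run parallel. These ranks therefore do not show whether the 4 genes vary together.

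The receptors for Cd200 were close to absent. Of Cd200r1, Cd200r2, Cd200r3 and Cd200r4, 0 of 4 had enough reads to be tested, the highest mean was 0.175 CPM, and Cd200r1 had 0 reads in all 15 libraries. Among 5 other costimulatory or inhibitory surface genes of the chromosome, 3 were tested and 0 passed for 24h against 0h, 7d against 0h, 7d against 24h or the hairpins against shScramble over all times, where 1.86%, 5.76%, 2.34% and 0.00773% of all rows passed. Cd80, the ligand of Cd28 and Ctla4, had 170 ± 18.7, 173 ± 14.6 and 212 ± 34.8 CPM at 0h, 24h and 7d (SD, n = 3, 6 and 6). The adhesion gene nectin-3, listed as Pvrl3, had 188, 179 and 203 CPM, Tigit had 3.05, 1.69 and 1.35 CPM, Cd96 had at most 0.12 CPM on average, and Cd86 had 0 reads in all 15 libraries. Of 15 genes related to the 4 proteins and listed outside the stretch, where names are only counted, 9 were tested. Of these, 1 was lower at 7d against 0h, where 5.76% of all rows passed in either direction.

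Markers of leucocytes, the cells in which Btla is best known, were mostly near 0. Of 17 leucocyte genes in the stretch, 4 were tested, 0 passed, the median was 0.25 CPM, and Cd86, Stfa1, Stfa2 and Stfa3 were at 0 in all 15 libraries. Their summed level was 162 to 208 CPM at 0h, 172 to 197 CPM at 24h and 185 to 253 CPM at 7d, nearly all of it Cd80, and without Cd80 it was 4.60 to 10.2, 6.29 to 15.1 and 8.16 to 12.8 CPM. For 7d over 0h the log2 difference was 2.56 ± 1.16 for Hcls1 and 2.78 ± 1.71 for Itgb2l (SE). It was 0.32 ± 0.13 for Cd80 and -1.27 ± 0.59 for Tigit. Hcls1, Itgb2l and Tigit had means of at most 3.27 CPM at any time. The part of leucocytes in the levels of Btla and Cd200 was not tested. In bulk samples, fewer cells of a type and less RNA per cell cannot be told apart. Of 6 leucocyte genes named elsewhere 3 were tested and 0 passed. A mean of at least 1 CPM was held by 2 of these 6 rows. The row named Itgam had 93.1, 78.9 and 96.0 CPM at 0h, 24h and 7d, and that named Ptprc 21.2, 28.7 and 21.1 CPM. Names there are only counted, since they were not taken as the genes their reads came from. Of 8 osteoblast genes named elsewhere all 8 were tested and 1 was higher at 7d against 0h, where 3.27% of all rows were higher. Of the 24 broadly expressed genes, 0 passed at 24h against 0h (1.86% of all rows), 1 was lower at 7d against 0h (5.76% of all rows passed in either direction) and 1 at 7d against 24h (2.34%). With so few genes tested, counts of 0 or 1 in these lists are near those shares.

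The hairpins against shScramble gave no call for any of the 4 genes. Averaged over the 3 times, Btla had a log2 difference of -0.55 ± 0.48 (SE, edgeR adjusted p = 0.902, 95% interval -1.65 to 0.54) and Cd200 one of -0.40 ± 0.38 (edgeR adjusted p = 0.923, interval -1.27 to 0.47). Cd47 had 0.25 ± 0.13 (edgeR adjusted p = 0.793, interval -0.05 to 0.56) and Cblb 0.20 ± 0.086 (edgeR adjusted p = 0.768, interval 0.01 to 0.40). Over all rows 1 of 12930 passed (0.00773%), 839 had an unadjusted p under 0.05, and DESeq2 called 109, none of them among the 4 genes. For Cblb edgeR gave an unadjusted p of 0.0442. Over 20 alternatives its log2 difference ran from 0.13 to 0.23, with adjusted p from 0.507 to 1.00.

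By time, the hairpins had a mean of 38.4 ± 23.3 CPM of Btla at 7d and shScramble 55.3 ± 10.7 CPM (SD, n = 4 and 2), and the ranges overlapped. For Cd200 the means were 256 ± 145 CPM with the hairpins and 357 ± 93.8 CPM with shScramble, again overlapping. The log2 difference at 7d was -0.54 ± 0.66 for Btla, -0.49 ± 0.57 for Cd200, -0.02 ± 0.20 for Cd47 and 0.05 ± 0.13 for Cblb (SE, edgeR adjusted p = 1.00 for each, with 0.0387% of rows called). At 24h it was -0.36, -0.65, 0.04 and 0.12 in the same order (edgeR adjusted p = 1.00 for each, 0.0155% called). Leaving out 1 library at a time gave 7d values between -1.13 and -0.21 for Btla and between -0.9998 and -0.19 for Cd200, and 24h values between -0.93 and -0.05 for Btla and between -1.05 and -0.41 for Cd200. At 0h, with 2 hairpin libraries against 1 of shScramble, Cd47 was at 423.1 and 425.7 CPM with the hairpins and 254.8 CPM with shScramble, a log2 difference of 0.74 ± 0.29 (edgeR adjusted p = 0.644, unadjusted p = 0.0334). Cblb differed by 0.44 ± 0.18 at that time (edgeR adjusted p = 0.650, unadjusted p = 0.0430), and 0.155% of rows passed. With all 18 libraries these differences at 0h were 0.28 for Cd47 and 0.24 for Cblb. The lone libraries at 0h are assumed to vary like the other groups.

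Each hairpin alone gave the same signs. With shRcor2-18 the log2 difference from shScramble was -0.67, -0.33, 0.25 and 0.19 for Btla, Cd200, Cd47 and Cblb, with 0.101% of rows called, and with shRcor2-20 it was -0.44, -0.47, 0.25 and 0.21, with 0.0387% called. None of the 4 genes passed with either. The change of the hairpin difference between 24h and 7d was -0.17 ± 0.97 for Btla, 0.16 ± 0.81 for Cd200, -0.07 ± 0.28 for Cd47 and -0.08 ± 0.18 for Cblb (SE, edgeR adjusted p = 1.00 for each, 0.0541% called). The interval of the mean over times spans a log2 difference of more than 1 on the lower side for Btla and Cd200, so these data do not show that the hairpins leave either gene unaltered.

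**Figure D4:**
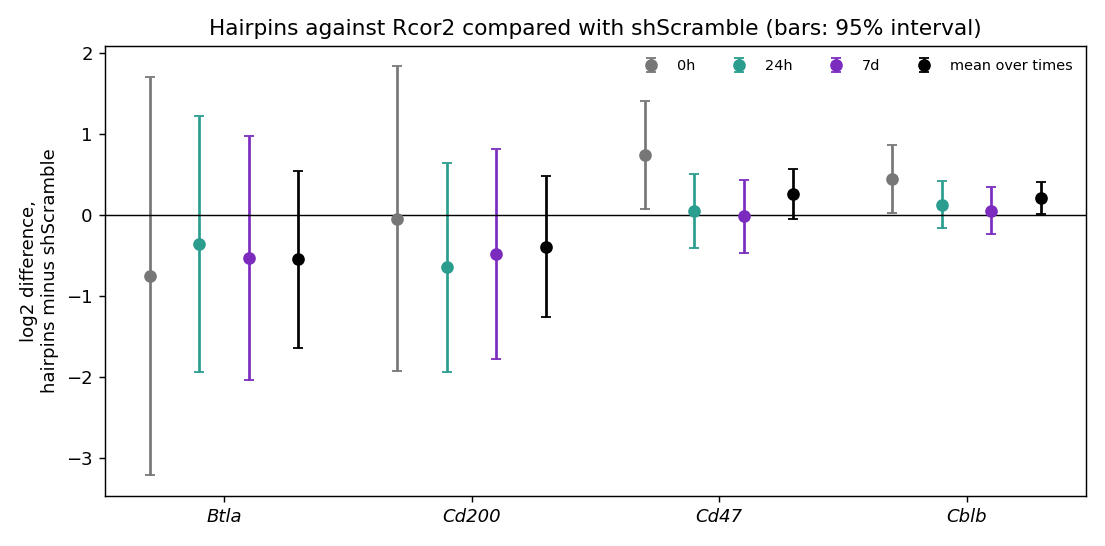
Log2 difference of the hairpins minus shScramble with 95% intervals for Btla, Cd200, Cd47 and Cblb at 0h, 24h and 7d and as the mean over times. Intervals averaged over the times run from -1.65 to 0.54 for Btla and from 0.01 to 0.40 for Cblb.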

How the data were processed

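RNA-seq was run on 18 samples in 9 groups, set by the titles. The authors deposited 1 table of raw counts per gene, unnormalized whole numbers. Reads were handled with FastQC, TopHat2 2.0.9, DESeq and DESeq2, per the submitters' processing notes, which name mm9. Which program counted reads, with which annotation and strand setting, is not given in the sources used here. All 4 genes and the lists were chosen with earlier results of these data known, as was the leaving out of 3 libraries at 0h.

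All rows of 15 libraries were fitted in edgeR 4.0.16 (R 4.3.3): filterByExpr with a minimum count of 10, TMM scaling, robust glmQLFit and glmQLFTest, 9 group means and 6 residual degrees of freedom, with Benjamini-Hochberg adjustment over 12930 rows and a threshold of 0.05. CPM are TMM scaled. DESeq2 1.42.0 was an alternative. Named genes are the 4 genes, the 4 coding genes on each side of each, list members on chromosome 16 and, per gene, the 3 most alike. The fit was tested on simulated data. Intervals of counts cover counting error only.

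Samples of the same construct and number deviated together at 24h and 7d: r was 0.53, 0.46 and 0.50 for shRcor2-18, shRcor2-20 and shScramble over 312 genes of the stretch, and 0.06, 0.05 and 0.03 over all rows. Same-numbered samples of different constructs gave -0.16 to 0.65 at 24h and -0.21 to 0.45 at 7d over the same 312 genes, so these values do not single out number within construct. The labels state no pairing. Sequences and gene order came from RefSeq (GRCm38.p6) and the reference annotation, in which 39547 identifiers were found.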

Additional observations from a re-analysis of the deposited data

How the results depend on the processing

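Of 604 alternative values of the 4 genes in the hairpin comparisons, 0 passed the threshold, 577 kept their sign and 27 reversed. Of 276 in the time comparisons, 271 moved by less than the spread between replicates and 5 moved further. That spread was wide for Btla and Cd200 (within-group SD of log2 CPM 0.89 and 0.78), so large moves of theirs are not among the 5. With all 18 libraries, 24h against 0h went from 1.57 to 0.74 for Btla. For Cd200 it went from 0.66 to -0.06, a change of sign. With all 18 libraries the hairpin difference at 0h was 0.17 for Btla, 0.11 for Cd200, 0.28 for Cd47 and 0.24 for Cblb, and Cd47 and Cblb moved to -0.41 and 0.51 for 24h against 0h and to -0.20 and 0.72 for 7d against 0h. On the chromosome 16 stretch alone the difference was 0.0094 for Cd200 at 0h and 0.023 for Cd47 at 7d, and the 7d minus 24h change for Cd47 was 0.0025. With the replicate block within construct, Cd200 at 0h was 0.51. This block leaves 3 residual degrees of freedom, against 6 without it. Over all times the hairpin difference was then -0.45 ± 0.16 for Btla and -0.31 ± 0.12 for Cd200 (SE). Without the block these were -0.55 ± 0.48 and -0.40 ± 0.38. The cause of these changes was not tested.

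Rows called are given for the hairpins over all times, at 0h, at 24h and at 7d, for shRcor2-18 and shRcor2-20 alone, for the change between 24h and 7d, and then for 24h against 0h, 7d against 0h and 7d against 24h. They were 1, 20, 2, 5, 13, 5, 7, 240, 745 and 302. DESeq2 called 109, 146, 29, 21, 73, 70, 33, 578, 1406 and 1076. With all 18 libraries each hairpin count was 0 and 7d against 24h gave 38. The stretch alone gave 0 for each hairpin comparison, then 21, 87 and 59. The block within construct gave 0, 0, 1, 0, 0, 0, 1, 56, 432 and 169. The block by sample number alone gave 12 at 0h, 7 for shRcor2-18 and 0 for shRcor2-20. With no filter the counts were 20, 41 and 4 over all times, at 0h and at 24h, and 20 and 18 for the hairpins alone. Scaling by library size only gave 8 over all times.

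Leaving out 1 library at a time gave 0 to 10, 9 to 24, 2 to 12, 5 to 15, 9 to 19, 0 to 8, 4 to 11, 126 to 231, 310 to 762 and 120 to 307 rows called in the same order. The lowest of the time counts came without the shScramble library at 0h (126 and 310) and without sample 1 of shRcor2-20 at 24h (120). Without 1 library the hairpin difference ran from -0.19 to 0.31 for Cd47 at 24h, from -0.29 to 0.30 for Cd47 at 7d and from -0.060 to 0.14 for Cblb at 7d. Its change between 24h and 7d ran from -0.77 to 0.39 for Btla, -0.35 to 0.55 for Cd200, -0.33 to 0.25 for Cd47 and -0.18 to 0.017 for Cblb. Cd47 at 7d against 0h ran from -0.14 to 0.30. Contrasts that need a 0h library of each construct have no value without it, except the time comparisons, which were then averaged over the constructs left, a choice made after seeing the data. Btla at 0h rests on 7 to 15 reads per library, which limits its fold changes.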
